A study of Mus musculus with 7 samples.

Results

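Padi4 and Padi2 are 2 of the 39179 genes in a table of RNA levels from mouse blood stem and progenitor cells. They were picked by symbol as the peptidylarginine deiminases known to act on histones, and Padi4 was selected on its rise in these libraries while other neutrophil genes fell. The Jmjd1c against control values of Padi4, Padi2 and the neutrophil genes are therefore given as a description, without p-values, and the calls counted among neutrophil genes are no support for the choice.

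Peptidylarginine deiminases are calcium-dependent enzymes that turn arginine inside a protein into citrulline, which removes a positive charge. PADI4 is best known from neutrophils, where it enters the nucleus and citrullinates histones as the chromatin loosens and is cast out as extracellular traps. PADI2 is made in a wider range of tissues, including brain, muscle and macrophages, and also citrullinates histones. In mouse multipotent progenitors PADI4 has been described with the DNA-binding factor LEF1 and the histone deacetylase HDAC1 at the Myc gene.

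Bulk RNA-seq was made from LSK cells, the lineage-negative, Sca-1-positive, Kit-positive fraction of bone marrow that holds blood stem cells and multipotent progenitors. The 3 Jmjd1c libraries came from Jmjd1c f/f Vav1Cre mice and the 4 control libraries from Vav1Cre mice, all C57/BL6 and 7 weeks old. Both groups carry the Vav1Cre transgene, which is active throughout blood cells, so the deletion is not limited to LSK cells and cells that mature from them lose the gene too. Whether each library came from its own mouse is not stated in the labels, so p-values measure how far these libraries vary, and part of that variation may be technical. Values are normalized read counts, that is, the deposited reads per gene divided by a size factor per library. Reads in genes ranged from 4416762 to 6253793 in the Jmjd1c libraries and from 4303712 to 6436519 in the control libraries.

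The targeted gene, Jmjd1c, a member of the KDM3 family of histone demethylases, held 294, 244 and 254 normalized read counts in the Jmjd1c libraries, against 458, 466, 516 and 512 in the control libraries. Its log2 fold change was -0.89 ± 0.09 (SE; limma, adjusted p = 0.00407). The exact two-sided permutation p was 0.0286, the smallest that 35 arrangements allow. One library stood apart. Jmjd1c 3 held 2767 normalized read counts of Xist, the RNA that silences an X chromosome in female cells, against 4 to 9 in the other 6 libraries, and the Y-linked genes Ddx3y, Kdm5d and Eif2s3y were at 0 in it alone. The LSK markers Kit, Cd34 and Ly6a, the gene for Sca-1, were present in every library, and Ly6g, which defines mature neutrophils, was at 1.21 or less. Ly6g alone does not show how much neutrophil RNA the libraries held. Of 22 late neutrophil genes, Ly6g among them, 18 passed the filter on low values. S100a8 averaged 2750 normalized read counts in the Jmjd1c libraries and 3832 in the control libraries, and Ngp 2647 and 3340.

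Padi4 and Padi2 lie in the cluster of all 5 mouse PADI genes on chromosome 4 (mm10). Padi4 (ENSMUSG00000025330) spans positions 140745865 to 140774236 on the minus strand. Padi2 (ENSMUSG00000028927) spans 140906344 to 140952586 on the plus strand. The genes are 132 kb apart, with Padi3 and Padi1 between them and Padi6 beyond Padi4. Because both genes sit in the same cluster but differ in their levels between the groups, the bases around their start sites are shown, from 250 before to 50 after the RefSeq start (GRCm38.p6, 5′ to 3′ on the gene's strand). Capitals mark a TATA box (TATAAA) and an E-box (CACGTG) in Padi4, and GC boxes (GGGCGG, or CCGCCC on the other strand) and a C/EBP half-palindrome (TTNNGNAA on the other strand) in Padi2.
Padi4, chr4:140774154-140774453, minus strand: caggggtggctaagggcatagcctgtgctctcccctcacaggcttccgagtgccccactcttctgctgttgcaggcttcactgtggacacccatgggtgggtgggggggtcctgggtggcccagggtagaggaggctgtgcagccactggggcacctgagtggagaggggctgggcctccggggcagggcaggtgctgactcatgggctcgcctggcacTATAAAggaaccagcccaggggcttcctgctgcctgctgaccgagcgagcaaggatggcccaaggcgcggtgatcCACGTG
Padi2, chr4:140906110-140906409, plus strand: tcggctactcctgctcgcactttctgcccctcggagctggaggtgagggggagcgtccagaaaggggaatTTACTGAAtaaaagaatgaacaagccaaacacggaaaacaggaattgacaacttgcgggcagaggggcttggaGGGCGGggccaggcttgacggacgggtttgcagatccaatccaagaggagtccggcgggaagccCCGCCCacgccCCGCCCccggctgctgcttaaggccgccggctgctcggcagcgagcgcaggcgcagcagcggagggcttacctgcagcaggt
The Padi4 window holds the TATA box starting 31 bases before the start site, the E-box at base 45 after it, and no GC box. That E-box follows an ATG in the printed bases and is in its reading frame, so its letters may be coding sequence. The Padi2 window holds no TATA box and 3 GC boxes, the first on the gene's strand 107 bases before the start and the others on the opposite strand 43 and 32 bases before it. Its C/EBP half-palindrome lies 180 bases before the start. Among 32851 RefSeq mouse promoter windows of the same length, searched on both strands, 13.6% held TATAAA, 35.7% GGGCGG, 7.15% CACGTG and 40.7% TTNNGNAA. The windows also differ in CpG, the dinucleotide that vertebrate DNA methylation acts on. Padi4 has 8 CpG, 0.248 times the number its base composition would give. Padi2 has 22 CpG at a ratio of 0.739, and the median of all windows is 0.384. GC content was 66.3% in the Padi4 window and 63.3% in the Padi2 window. Cores of 3 families of blood transcription factors were also searched and were in neither window. The PU.1-type core GAGGAA was in 28.3% of all mouse windows. The RUNX core TGTGGT was in 16.8% of them, and the GATA-factor core AGATAA in 11.2%. A match is a string of letters, not a measured binding site, and no match says only that these letters are not in this window.

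Padi4 was higher in every Jmjd1c library than in every control library. It held 677, 816 and 1073 normalized read counts in Jmjd1c 1, 2 and 3, against 406, 459, 512 and 424 in controls 1 to 4. The lowest Jmjd1c library thus stood above the highest control library, and Jmjd1c 3 was the highest of the 7. These values rest on 818, 792 and 914 reads in the Jmjd1c libraries and on 508, 380, 439 and 485 reads in the control libraries. The 95% exact Poisson intervals, which cover counting error only, ran from 631 to 725, 760 to 875 and 1005 to 1145 in the Jmjd1c libraries. In the control libraries they lay between 372 and 562. The intervals of the 3 Jmjd1c libraries do not overlap one another, so those libraries differed among themselves by more than counting error.

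Padi4 averaged 855 ± 201 normalized read counts in the Jmjd1c libraries (SD, n = 3) and 450 ± 46.4 in the control libraries (SD, n = 4). The SD was 23.5% of the mean in the Jmjd1c libraries and 10.3% in the control libraries. The log2 fold change was 0.90 ± 0.14 (SE), a level 1.87 times as high. Without Jmjd1c 3, the library with Xist and the highest Padi4, it was 0.73. In bulk RNA, a higher share of cells that express Padi4 and more Padi4 RNA per cell cannot be told apart.

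Over the whole table, 1.8% of the 12813 tested genes had an adjusted p under 0.05 (limma, Benjamini-Hochberg), 1.51% higher in the Jmjd1c libraries and 0.289% lower. In 16.8% of tested genes the groups did not overlap. Padi4 was among the 194 genes called higher, from which nothing is read because Padi4 was chosen for that difference. By size of log2 fold change it ranked 109 from the highest of all tested genes and 26 among those called higher. That call was not made without Jmjd1c 2, Jmjd1c 3, control 2 or control 3. The exons of Padi4 are 54.7% G and C, above 78.3% of tested genes, and the genes called higher had a median of 55.4% against 49.4% over all tested genes. With each library corrected for exon GC and length, the log2 fold change of Padi4 was 0.79.

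For Padi2 the groups overlapped. It held 474, 467 and 437 normalized read counts in Jmjd1c 1, 2 and 3, against 513, 465, 495 and 491 in controls 1 to 4. The overlap is narrow, since control 2 alone among the controls lay below Jmjd1c 1 and 2. The means were 459 ± 19.8 in the Jmjd1c libraries (SD, n = 3) and 491 ± 19.9 in the control libraries (SD, n = 4), with a log2 fold change of -0.10 ± 0.07 (SE), and of -0.06 without Jmjd1c 3. The SD was 4.31% of the mean in the Jmjd1c libraries and 4.06% in the control libraries. Counting intervals of all 7 libraries share the range from 474 to 483, so no difference between libraries was detectable beyond counting error at this depth. The spread of Padi2 within groups was 0.06 on the log2 scale, lower than in all but 4.36% of tested genes, and that of Padi4 was 0.24, higher than in 68.3% of them. Padi2 overlaps 4921 bases of the antisense gene Gm13031, and whether reads were counted by strand is not given in the sources used here. Gm13031 held 30.5 to 37.1 normalized read counts in the Jmjd1c libraries and 26.4 to 49.5 in the control libraries.

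**Figure D1:**
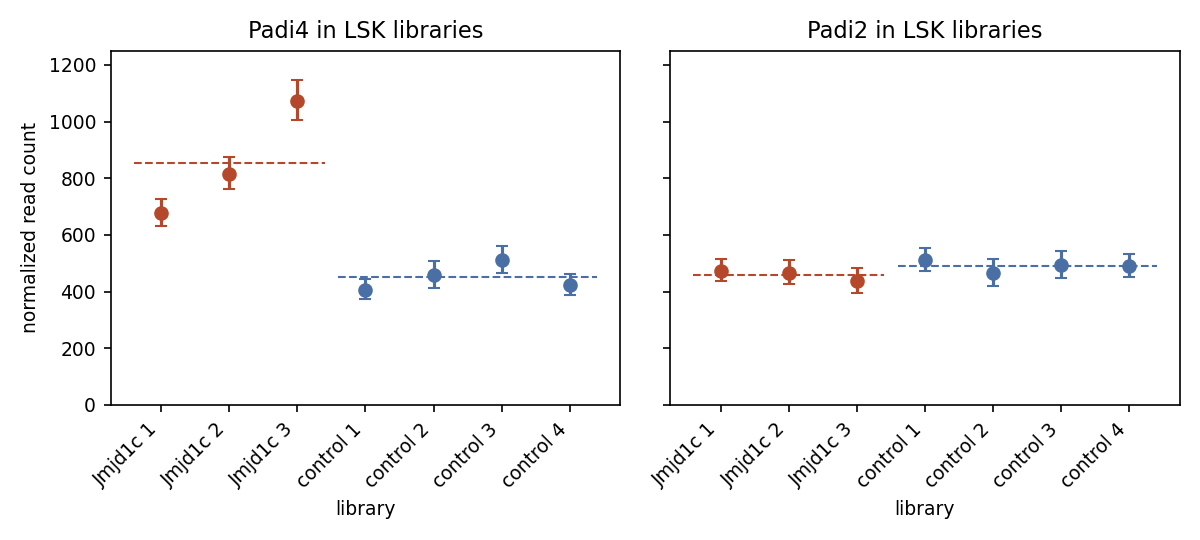
Normalized read counts of Padi4 (left) and Padi2 (right) in each Jmjd1c and control library. Points are libraries, bars are 95% exact Poisson intervals of the reads and dashed lines are group means; Padi4 is at 677 to 1073 in the Jmjd1c libraries and at 406 to 512 in the controls, while Padi2 lies between 437 and 513 in all 7.

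Per length of exon, control LSK cells held nearly as much Padi4 as Padi2 RNA, and the Jmjd1c libraries held more Padi4. Padi4 was at 177 ± 41.6 normalized read counts per kilobase of exon in the Jmjd1c libraries (SD, n = 3) and at 93.1 ± 9.59 in the control libraries (SD, n = 4). Padi2 was at 91.6 ± 3.95 per kilobase in the Jmjd1c libraries and at 97.9 ± 3.97 in the control libraries. The ratio of Padi4 to Padi2 per kilobase was 1.48, 1.81 and 2.55 in the Jmjd1c libraries, against 0.82, 1.02, 1.07 and 0.90 in the control libraries. In the controls the ratio lay on either side of 1, so the order of Padi4 and Padi2 did not exceed their spread there, whereas Padi4 was the higher in each Jmjd1c library. By mean level per kilobase, Padi4 stood above 84.7% of the annotated tested genes in the Jmjd1c libraries and above 72.5% in the control libraries. Padi2 stood above 72.1% of them in the Jmjd1c libraries and above 73.8% in the control libraries.

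The other PADI genes were low. Padi1, known from skin, held 21.5, 10.3 and 34.0 normalized read counts in the Jmjd1c libraries, against 28.0, 31.4, 31.5 and 26.2 in the control libraries. Its groups overlap, and its log2 fold change of -0.54 ± 0.34 (SE) did not pass the test (limma, adjusted p = 0.397). It was -0.10 without Jmjd1c 2 and -0.92 without Jmjd1c 3. Padi3, known from hair follicles, was at 0 to 2.35 in the Jmjd1c libraries and at 0 to 3.50 in the control libraries. Padi6, known from egg cells, was at 0 in the Jmjd1c libraries and at 0 to 1.75 in the control libraries. Neither passed the filter on low values, so 3 of the 5 family members were tested and 1, Padi4, was called. Padi4 was chosen for that difference, so nothing is read from this count. The share of the family's RNA per kilobase held by Padi4 was 58.3%, 63.7% and 69.6% in the Jmjd1c libraries, against 43.4%, 48.2%, 49.3% and 45.2% in the control libraries.

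**Figure D2:**
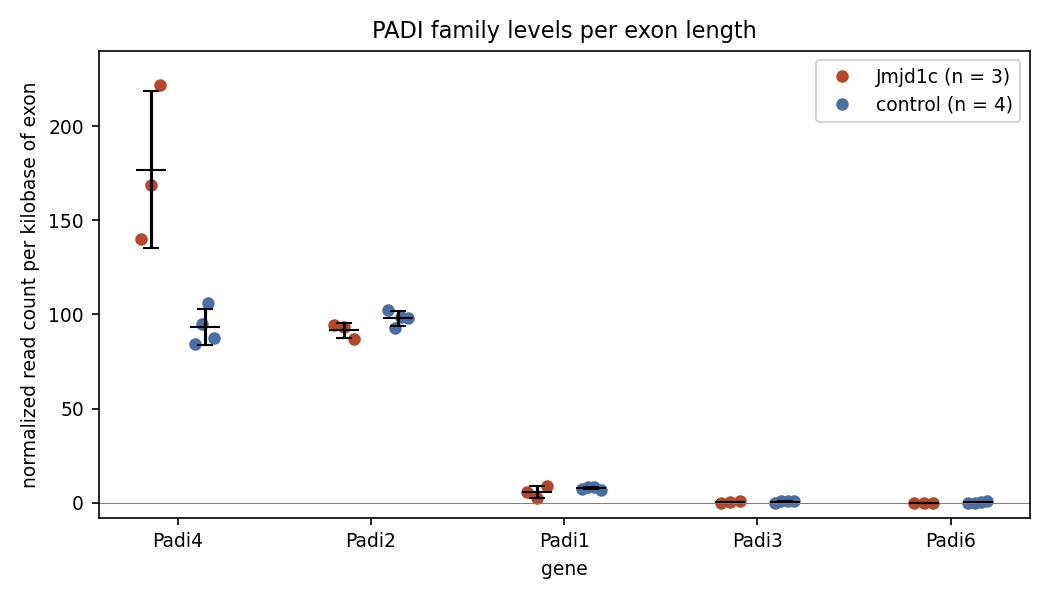
Normalized read counts per kilobase of exon of the 5 PADI genes, with Jmjd1c libraries left of control libraries for each gene. Points are libraries and bars are the mean with its SD; Padi4 averages 177 in the Jmjd1c libraries and 93.1 in the controls, Padi2 91.6 and 97.9, and Padi1, Padi3 and Padi6 are far lower.

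Around the cluster, Padi4 was the only gene called with all 7 libraries. Within 500 kb the annotation has 44 genes of the table, 16 of them tested and 1 called, beside 1.8% of all tested genes. That gene is Padi4 itself, so nothing is read from this count. Groups did not overlap for Padi4, chosen for its difference, and for 2 others, a share of the 16 close to the 16.8% of the whole table. Atp13a2, a lysosomal transporter, held 189, 190 and 186 normalized read counts in the Jmjd1c libraries, against 133, 135, 114 and 161 in the control libraries. Its log2 fold change was 0.48 ± 0.12 (SE; limma, adjusted p = 0.0673), and 0.15 with the GC and length correction. Fbxo42, an F-box protein of ubiquitin ligases, had a log2 fold change of 0.37 ± 0.16 (SE; adjusted p = 0.226). The nearest tested genes beside the cluster were Rcc2 and Sdhb. Rcc2, a mitotic regulator on the Padi6 side, had a log2 fold change of 0.22 ± 0.10 (SE; adjusted p = 0.256). Sdhb, a subunit of the respiratory chain on the Padi2 side, had one of -0.03 ± 0.06 (SE; adjusted p = 0.775).

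**Figure D3:**
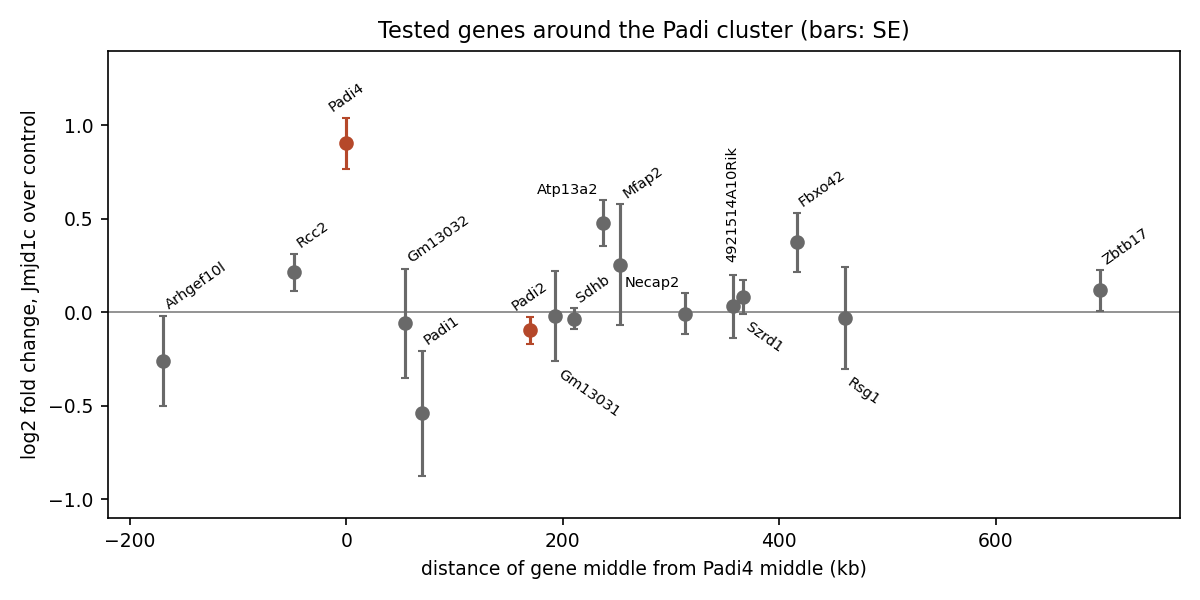
Log2 fold change, Jmjd1c over control, of the 16 tested genes within 500 kb of the Padi cluster, against the distance of each gene's middle from that of Padi4 in kb. Bars are standard errors from limma; Padi4 stands at 0.90 and Padi2 at -0.10, and no other gene stands above 0.5.

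The neutrophil genes that Padi4 was set against when it was chosen differ from it in direction. Over all tested genes, 0.289% were called lower and 1.51% higher. Of 22 genes of late neutrophil maturation, 18 were tested, 3 fell and 0 rose (adjusted p under 0.05). Their median log2 fold change was -0.33, against -0.01 over all tested genes, and 16 of the 18 were negative. Fcnb, a secreted lectin of granules, held 555 ± 83.4 normalized read counts in the Jmjd1c libraries (SD, n = 3) and 850 ± 79.3 in the control libraries (SD, n = 4; log2 fold change -0.62). Chil3, a chitinase-like protein, had -0.59, and Anxa1, an annexin that restrains inflammation, had -0.34. Csf3r, the receptor of the neutrophil growth factor G-CSF, was on the side of Padi4 at 0.24 without being called. It held 1392, 1516 and 1304 normalized read counts in the Jmjd1c libraries, against 1219, 1166, 1249 and 1118 in the control libraries, without overlap. The count of 3 was 0 without Jmjd1c 2, Jmjd1c 3, control 1, control 2 or control 3, and with the GC and length correction Fcnb alone was called.

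Per 1000 normalized read counts summed over those 22 genes, Padi4 held 43.7, 69.5 and 75.2 in the Jmjd1c libraries, against 23.9, 28.8, 25.4 and 21.9 in the control libraries. Padi2 held 30.6, 39.8 and 30.6 in the Jmjd1c libraries, against 30.2, 29.2, 24.6 and 25.4 in the control libraries. The choice of Padi4 for rising while neutrophil genes fell sets the direction of the Padi4 ratio, so nothing is read from it. Padi2, by the same measure, was highest in Jmjd1c 2, and its other Jmjd1c values lay just above control 1. The Padi2 ratio has the same denominator, 13838 ± 1920 in the Jmjd1c libraries and 18090 ± 1966 in the control libraries (SD). The fall of neutrophil genes was part of the choice, so nothing is read from the Padi2 ratio either.

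The primary granule genes, which early granulocyte precursors make, include the proteases that act with PADI4 in extracellular traps. The median log2 fold change of the 9 tested was -0.14. Against 0.289% called lower and 1.51% called higher over all tested genes, 1 of the 9 fell and 0 rose. That gene was Ctsg, cathepsin G, with 330 ± 35.7 normalized read counts in the Jmjd1c libraries (SD, n = 3) and 455 ± 44.4 in the control libraries (SD, n = 4; log2 fold change -0.46). Elane, neutrophil elastase, had -0.37 and Mpo, myeloperoxidase, -0.14, and neither was called. Of 23 genes of the trap machinery, which include these, 2 fell and 0 rose beside the same whole-table shares, with a median of -0.05. The second was Ncf1, a subunit of the oxidase whose oxygen radicals set off trap release, with a log2 fold change of -0.33. Both calls were absent without Jmjd1c 2, Jmjd1c 3, control 1, control 2 or control 3; Ctsg was also not called without Jmjd1c 1 or with the GC and length correction, nor Ncf1 without control 4. Among 8 tested transcription factors of granulocytes and monocytes, Myb alone rose, with 1598 ± 155 normalized read counts in the Jmjd1c libraries and 1187 ± 84.0 in the control libraries (log2 fold change 0.43, limma adjusted p = 0.0343). Myb was not called without Jmjd1c 2, Jmjd1c 3, control 2 or control 3.

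Of 15 tested genes described with PADI4 or PADI2 as partners or substrates, 1 rose and 0 fell. Their median log2 fold change was 0.01. Over all tested genes, 1.51% were called higher and 0.289% lower, so nothing particular to this list is read from 1 call in 15. Polr2a, the large subunit of RNA polymerase II and a reported PADI2 substrate, held 582 ± 87.3 normalized read counts in the Jmjd1c libraries (SD, n = 3) and 369 ± 51.8 in the control libraries (SD, n = 4), which is 0.65 on the log2 scale (limma, adjusted p = 0.0343). It was not called without Jmjd1c 2, Jmjd1c 3, control 2 or control 3, nor with the GC and length correction. Hdac1 had a log2 fold change of 0.01 (adjusted p = 0.946). Lef1 was too low to be tested, at 1.65, 2.06 and 38.7 in the Jmjd1c libraries, against 0, 0, 1.17 and 10.5 in the control libraries, so its level in Jmjd1c 3 stood far above the others. Myc, looked up for its reported link with PADI4, held 3297 ± 181 normalized read counts in the Jmjd1c libraries and 3227 ± 217 in the control libraries, a difference of 0.03 ± 0.07 on the log2 scale (SE; limma, adjusted p = 0.832).

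Among genes of replacement and linker histones, 2 of 8 tested rose and 0 fell. Over all tested genes, 1.51% were called higher and 0.289% lower. The median log2 fold change of the 8 was -0.03. H2afx, the variant phosphorylated at DNA breaks, held 692 ± 176 normalized read counts in the Jmjd1c libraries (SD, n = 3) and 380 ± 87.4 in the control libraries (SD, n = 4; log2 fold change 0.86, limma adjusted p = 0.0452). H2afy, macroH2A, had 0.35 (adjusted p = 0.0343). The genes of histone H3.3, H3f3a and H3f3b, a form of the histone H3 that PADI4 and PADI2 citrullinate, had -0.14 (adjusted p = 0.384) and -0.15 (adjusted p = 0.263). The count of 2 was 0 without Jmjd1c 2, Jmjd1c 3, control 1, control 2 or control 3, and likewise with the GC and length correction. H2afx was also not called without control 4.

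The enzymes that compete for the same arginines or supply calcium showed 0 calls in the main limma fit of all 7 libraries. Over all tested genes, 1.51% were called higher and 0.289% lower, so nothing is read from 0 calls in lists this small. Prmt1, a main member of the protein arginine methyltransferases, was not analysed here. None of the 7 tested members was called, with a median of 0.11, and of 0.05 without control 1. Of the 7, 2 had an unadjusted p under 0.05, edgeR called 0 and DESeq2 called Prmt3. Over all 12813 tested genes, 2529 had an unadjusted p under 0.05 in limma, so such values were common. Prmt3 held 287 ± 90.6 normalized read counts in the Jmjd1c libraries (SD, n = 3) and 167 ± 40.7 in the control libraries (SD, n = 4; log2 fold change 0.76, adjusted p = 0.0944), and Prmt2 had -0.40 (adjusted p = 0.184). None of 14 calcium entry and store genes was called, with a median of 0.13; 3 had an unadjusted p under 0.05, edgeR called 0 and DESeq2 called Atp2a3. Atp2a3, a pump that fills the calcium store, came closest, with 1448 ± 193 normalized read counts in the Jmjd1c libraries and 1065 ± 104 in the control libraries (log2 fold change 0.44, adjusted p = 0.0537). Limma called Atp2a3 with the filter of 50 (limma, adjusted p = 0.0483) and with no filter (limma, adjusted p = 0.0411). Without Jmjd1c 1, where 624 genes were called over the whole table, limma called both Atp2a3 and Prmt3. Of the enzymes that make or use free citrulline, 4 of 10 were tested and 0 called by limma, edgeR or DESeq2, and 0 had an unadjusted p under 0.05. Ass1, which joins citrulline to aspartate, had 0.07 (adjusted p = 0.762), and Asl, which acts after it, -0.14 (adjusted p = 0.566).

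**Figure D4:**
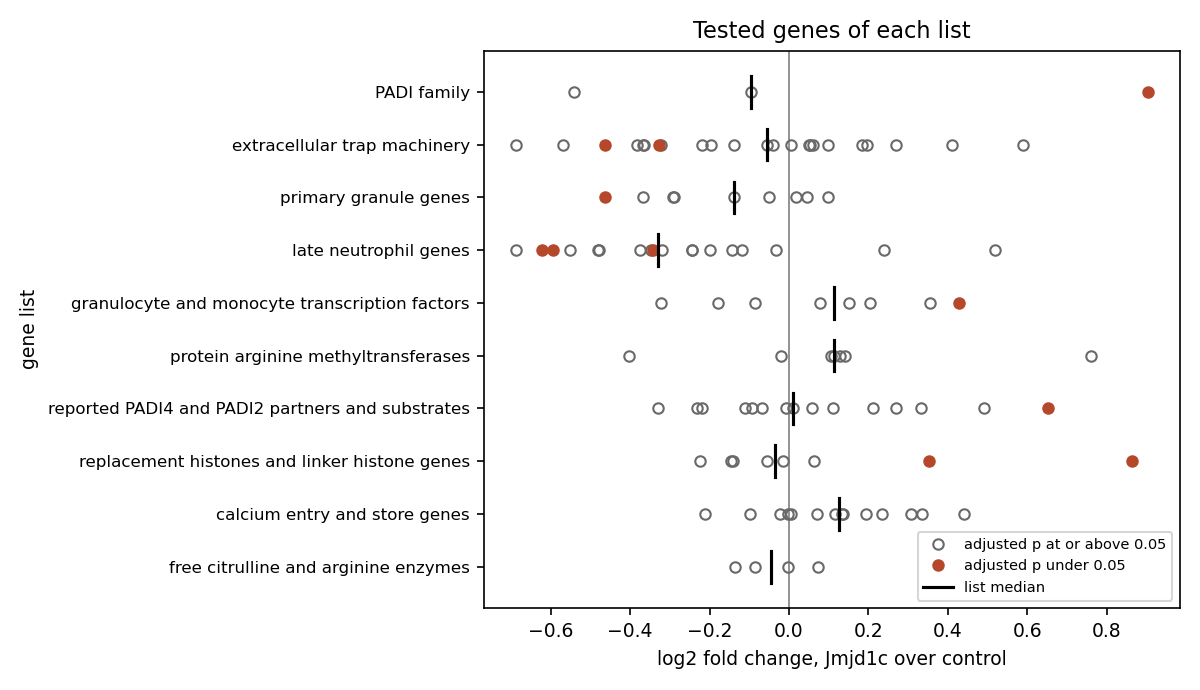
Log2 fold change, Jmjd1c over control, of the tested genes in 10 lists, with the PADI family at the top. Filled points passed an adjusted p under 0.05 in limma and open points did not, and the bar is the list median; Padi4 is the filled point at 0.90, chosen for that rise, and the late neutrophil genes have a median of -0.33.

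Markers of other cell types also moved between the groups. The calls below stand beside 0.289% called lower and 1.51% called higher over all tested genes. The summed level of 10 basophil, mast cell and eosinophil genes was 3208 to 5946 in the Jmjd1c libraries and 6526 to 10233 in the control libraries, without overlap. Prss34, a basophil protease, makes up most of that sum, with 2720 ± 978 in the Jmjd1c libraries (SD, n = 3) and 5718 ± 1243 in the control libraries (SD, n = 4). The median log2 fold change of the 10 was -0.56, and none was at 0 in every library. The eosinophil genes Epx and Prg2 had positive values, 0.89 (adjusted p = 0.182) and 0.13 (adjusted p = 0.793). Of the 10, Prss34 fell (log2 fold change -1.12, limma adjusted p = 0.0410), and it was not called without Jmjd1c 2, Jmjd1c 3, control 1, control 2 or control 3. Limma called 4 of the 10 lower without control 4 and 3 without Jmjd1c 1, in fits that called 202 and 624 genes over the whole table. DESeq2 on all 7 libraries called 3 of the 10 lower. The summed level of 14 macrophage and monocyte genes was 8881 to 14294 in the Jmjd1c libraries and 12652 to 32717 in the control libraries, with control 4 far above the rest. Of 13 tested, Ly6c2, a surface protein of monocytes, fell by 0.80 on the log2 scale (limma, adjusted p = 0.00407), and it was called without each library in turn. The median of the 13 was -0.54, and it was -0.08 without control 4. The 7 tested B and plasma cell genes had a median of -1.17, with 0 called by limma, edgeR or DESeq2 on all 7 libraries. Limma called 2 of them lower without Jmjd1c 1 and 1 lower without Jmjd1c 3. Those fits called 624 and 9 genes over the whole table. Of these 7, 6 had an unadjusted p under 0.05, against 2529 of all 12813 tested genes. The median was -0.67 without Jmjd1c 2 and -1.55 without Jmjd1c 3. Of 5 tested megakaryocyte genes, the integrin gene Itga2b rose (0.59, limma adjusted p = 0.0374) and lost its call without each of the same 5 libraries as Prss34. With the GC and length correction neither was called, at 0.37 for Itga2b (adjusted p = 0.0968) and -1.09 for Prss34 (adjusted p = 0.0692). Padi4 in control 4 was 424, inside the range of the other controls, and Padi4 without control 4 had a log2 fold change of 0.88. The part of these cell types in the levels of Padi4 and Padi2 was not tested. None of the 11 LSK markers was called by limma, edgeR or DESeq2, with a median of 0.00. An unadjusted p under 0.05 was found for 2 of the 11, against 2529 of all 12813 tested genes.

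The genes whose levels followed Padi4 most closely over the 7 libraries were Os9, Noa1, Ptk7, Edem2 and Mri1, with Pearson r of log2 levels between 0.985 and 0.992. All of them are higher in each Jmjd1c library than in each control library. They were taken for likeness to Padi4, itself chosen for its rise, so nothing is read from this. Groups did not overlap in 16.8% of all tested genes. Mri1, an enzyme of methionine salvage, held 110, 166 and 187 normalized read counts in the Jmjd1c libraries, against 51.2, 67.6, 67.6 and 56.8 in the control libraries. Ptk7, a receptor-like cell surface protein, held 80.3, 107 and 127 in the Jmjd1c libraries, against 46.4, 53.1, 60.6 and 42.0 in the control libraries. Like Padi4, they were highest in Jmjd1c 3. With group means removed, the closest genes were others, Spsb2, Txndc5, Mfsd2b, Mcrs1 and Gtf2h1 (r between 0.976 and 0.987). Txndc5, a disulfide isomerase, held 192, 233 and 331 in the Jmjd1c libraries, against 179, 205, 219 and 198 in the control libraries.

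For Padi2 the closest genes by level were 4930586N03Rik, Ccdc66, Pkd2, Timm17a and Ulk1, with r between 0.972 and 0.983. Timm17a, part of the mitochondrial protein import channel, held 472, 471 and 418 in the Jmjd1c libraries, against 577, 465, 504 and 522 in the control libraries. With group means removed they were Inafm2, Tex9, Rev1, Gm12758 and Rbm28 (r between 0.978 and 0.987). None of these genes was called. The differences of Padi2 between libraries that this likeness rests on lie within counting error. These r values are a description of 7 libraries that share preparation and size factors, with the highest taken from 12813 genes.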

How the data were processed

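The authors deposited a signal per gene and library, which the steps in each column show to be read counts scaled by 1 factor per library. Per the submitters' processing notes, Trim Galore 0.2.8, STAR, HTSeq 0.6.1p1, DESeq 1.18.0 and mm10 were used; the sources used here do not name the annotation release, strand setting or filters. Per the labels' protocols, RNA was extracted with Trizol and amplified with a SMARTer kit for very small inputs. Whole reads were recovered from the steps of each column for 100% of values, within 0.01 of a read, and edgeR on them called 233 genes against 231 by limma.

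Genes with at least 10 in at least 3 libraries (12813) were fitted with limma-trend (limma 3.58.1, R 4.3.3) on log2(value + 1), all 7 libraries, no covariate, with Benjamini-Hochberg adjustment over all of them and a threshold of 0.05. Fold changes on this scale understate the change of low genes. The steps were tested on simulated counts. Symbols matched 37607 of 39179 IDs. Exon lengths, GC content and positions came from GENCODE for GRCm38, the assembly of mm10, and 136 tested genes had none. Levels per kilobase use all merged exons. Promoter windows came from RefSeq tables for GRCm38.p6.

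The members and lists were chosen with earlier results of these data known. Genes were named by a rule: the PADI family, Jmjd1c, genes within 500 kb of the cluster, up to 4 called members of each list or the 2 smallest p where none was called, and the 5 most alike genes by each measure. Myc, Lef1, Hdac1, Epx, Prg2, H3f3a, H3f3b, Mpo, Elane, Csf3r, S100a8, Ngp, Kit, Cd34, Ly6a, Ly6g, Xist and the Y-linked genes fall outside it and were named after their values were seen. Some genes that the rule gives are not named. Alternatives were pseudocounts of 0.5 and 10, no filter, a filter of 50, TMM scaling, quantile normalization, limma without the trend, edgeR 4.0.16 and DESeq2 1.42.0 on the recovered reads, the replicate number as a block, a correction for GC content and length, and leaving out each library in turn.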

Additional observations from a re-analysis of the deposited data

Results flagged for a closer look

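In the 4 control libraries, 22 values and sums were examined for a single library far from the rest, by the gap to its nearest neighbour over the group's range (Dixon's 95% critical value), and 4 were past it. Chance flags about 1 in 20 such groups. The summed level of the PADI family was 1043 normalized read counts in control 3, against 945 to 957 in the other controls; control 3 also had the highest Padi4 of the controls, at 512. The summed level of the replacement and linker histone genes was 18847 in control 4, against 20186 to 20286 in the others. The summed level of the calcium entry and store genes was 4067 in control 2, against 3818 to 3846 in the others. The summed level of the macrophage and monocyte markers was 32717 in control 4, against 12652 to 15777 in the others. The Jmjd1c group has 3 libraries and was not examined in this way.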

How the results depend on the processing

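Padi4 stayed higher in the Jmjd1c libraries under every alternative run, with log2 fold changes of 0.79 to 0.92, and of 0.73 (without Jmjd1c 3) to 1.06 (without Jmjd1c 1) with 1 library left out. Padi2 ranged from -0.12 to -0.06 with 1 library left out and was -0.18 with the GC and length correction, for which the cause was not tested. The number of called genes, 231 in limma, was less stable. It was 590 in DESeq2, 79 after the GC and length correction, and 0 in limma without the trend, where 2213 genes had an unadjusted p under 0.05 and the Jmjd1c gene had an adjusted p of 0.117. With 1 library left out the count ranged from 3 to 624. It was 3 without Jmjd1c 2, control 2 or control 3, 9 without Jmjd1c 3, 68 without control 1, 202 without control 4 and 624 without Jmjd1c 1, and in the fits with 3 calls all were lower in the Jmjd1c libraries. With the replicate number as a block, which drops control 4 because it has no partner, 14 genes were called and Padi4 had 0.88. Same-numbered libraries had correlations of -0.15, 0.00 and 0.02, so the numbers are not taken as pairs. Of 521 other single-gene results, 395 kept their direction and side of the threshold, 117 lost the threshold and 9 gained it. The 395 include genes that were not called at first and stayed so. Only results of called genes could lose the threshold, so 117 of 521 understates how often calls were lost. List medians shifted with single libraries: with 1 left out, that of the macrophage and monocyte genes ran from -0.81 to -0.08, of the B and plasma cell genes from -1.55 to -0.67, of the trap machinery from -0.11 to -0.01, of the primary granule genes from -0.20 to -0.06, of the calcium genes from 0.08 to 0.15 and of the late neutrophil genes from -0.41 to -0.26. Lists gave more calls in DESeq2, where 5 late neutrophil genes fell and the trap machinery had 2 higher and 4 lower. Depth limits Padi1, Padi3, Padi6 and Lef1, whose values rest on few reads.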
